A study of Mus musculus with 21 samples.

Results

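RNA sequencing of mouse skin and skin-draining lymph nodes was examined for 8 genes of the neutrophil lineage, *Mpo*, *Elane*, *Ltf*, *Camp*, *Ngp*, *Lcn2*, *Csf3r* and *Retnlg*. They were taken by gene symbol from the 55491 genes of each expression table, and all 8 were found in both tables. Only 7 of them in skin and 2 in lymph nodes had enough counts to be tested, among 19101 and 16173 tested genes. Values are CPM, the usual scale of sequencing counts relative to a library's total count, with totals adjusted between libraries by TMM, and a call is an adjusted p under 0.05 from edgeR's quasi-likelihood test.

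Neutrophils are short-lived phagocytes that are made in the bone marrow and enter inflamed tissue from the blood. Their granules are filled in sequence during maturation. Primary granule proteins such as myeloperoxidase (*Mpo*) and neutrophil elastase (*Elane*) are transcribed in promyelocytes. The specific granule proteins lactoferrin (*Ltf*), the cathelicidin precursor (*Camp*), neutrophilic granule protein (*Ngp*) and lipocalin 2 (*Lcn2*) are transcribed later, in myelocytes and metamyelocytes, and most of these transcripts are low in neutrophils that have left the marrow. The receptor for granulocyte colony-stimulating factor (*Csf3r*) and the resistin-like protein gamma (*Retnlg*) are transcribed in mature neutrophils. Some members are not restricted to neutrophils, since keratinocytes and other epithelial cells can make *Lcn2*, *Camp* and *Ltf*, and *Csf3r* and *Mpo* also occur in monocytes.

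The *Ifnk* TG mice carry interferon kappa under the keratin 14 promoter, which is active in basal keratinocytes, on a BALB/c background after backcrossing from C57Bl/6. WT mice were BALB/c without the transgene. Skin came from mice at 12 months of age and formed 3 groups, WT skin (3 libraries), nonlesional TG skin (NL, 2 libraries) and lesional TG skin (L, 4 libraries), none of them irradiated. Inguinal lymph nodes came from mice whose age is not given in the text sources used here and formed 4 groups of 3 libraries each, WT and TG, without treatment (NoTx) or with UVB (UV). UVB was given at 250 mJ/cm2 on 3 days per week for 2 weeks and was followed by 2 weeks of observation. Nonlesional skin came from the back and from areas like those of lesions, and the body site of single samples is not given in the sources used here. The labels do not tie libraries to mice, so p-values measure the spread between libraries, which may in part be technical.

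Library totals ranged from 40499078 to 56511276 counts in skin and from 27599809 to 36428435 in nodes, so that 3 counts, used here as the floor, corresponded to 0.0541 to 0.0742 CPM in skin and 0.0811 to 0.109 CPM in nodes. *Ifnk* itself had 5 to 14 counts in each L library, 6 and 0 counts in the 2 NL libraries and 0 counts in each WT skin library and each node library. The 6 keratinocyte and collagen genes that define skin summed to at least 9670 CPM in each skin library, and the 6 lymphocyte genes that define nodes summed to at least 1590 CPM in each node library. The NL library without an *Ifnk* count, sample 3, was kept, and values without it are given beside the calls of L against NL skin that it changes.

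The specific granule genes *Camp*, *Ngp* and *Ltf* lie within 1.20 Mb of one another on mouse chromosome 9 (GRCm38, GENCODE M21). Whether they differ from one another in skin was not tested. *Camp* (ENSMUSG00000038357) spans chr9:109847379-109849617 on the minus strand, *Ngp* (ENSMUSG00000032484) chr9:110419747-110423012 on the plus strand and *Ltf* (ENSMUSG00000032496) chr9:111019271-111042767 on the plus strand. *Mpo* (ENSMUSG00000009350) lies at chr11:87793581-87804413 on the plus strand. The sequences upstream of these 4 genes are shown because *Camp* and *Mpo* were the members called in lesional skin. *Ltf*, which was not called, and *Ngp*, which had too few counts to be tested, are the specific granule neighbours of *Camp*. They were taken from RefSeq promoter windows (GRCm38.p6, 250 bases before to 50 after the RefSeq start, all 8 members matched) and are given 5′ to 3′ up to the first base of the GENCODE gene, with matches to 3 motifs in capitals:
Camp, chr9:109849618-109849706, minus strand: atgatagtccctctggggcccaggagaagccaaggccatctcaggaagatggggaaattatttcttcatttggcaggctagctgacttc
Ngp, chr9:110419558-110419746, plus strand: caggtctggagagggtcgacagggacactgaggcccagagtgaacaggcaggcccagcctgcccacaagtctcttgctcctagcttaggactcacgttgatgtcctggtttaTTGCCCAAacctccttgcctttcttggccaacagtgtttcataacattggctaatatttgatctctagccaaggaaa
Ltf, chr9:111019042-111019270, plus strand: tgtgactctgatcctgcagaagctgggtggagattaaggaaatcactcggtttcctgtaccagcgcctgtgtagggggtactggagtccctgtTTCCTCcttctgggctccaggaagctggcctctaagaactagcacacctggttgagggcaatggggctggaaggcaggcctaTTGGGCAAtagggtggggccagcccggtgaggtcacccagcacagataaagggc
Mpo, chr11:87793534-87793580, plus strand: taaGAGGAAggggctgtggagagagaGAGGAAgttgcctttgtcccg

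The motifs searched on both strands were TTGCNNAA, a form of the site bound by C/EBP factors, GAGGAA, the core of sites bound by PU.1, and the TATA box TATAAA, and they do not overlap in these windows. C/EBP and PU.1 are transcription factors of granulocyte development. *Ngp* held 2 matches to TTGCNNAA in its 300-base window, at 138 to 131 bases and at 11 to 4 bases before the RefSeq start, of which the first is in the stretch shown. *Ltf* held 1, at 75 to 68 bases, and 1 match to GAGGAA, at 157 to 152 bases, both on the minus strand of the gene. *Mpo* held 2 matches to GAGGAA, at 247 to 242 and 224 to 219 bases. *Camp* held no match to any of the 3 motifs, which says only that these letters are not in this window. Of the members whose sequences are not shown, *Lcn2* and *Retnlg* held TTGCNNAA, and *Lcn2*, *Elane* and *Csf3r* held GAGGAA. Among all 32851 promoter windows of that length, 10.8% held TTGCNNAA, 28.3% GAGGAA and 13.6% TATAAA. No member held TATAAA.

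The comparison of L with WT skin asks which of these genes differ between lesions and skin of mice without the transgene. *Camp* and *Mpo* were higher in L skin and passed the test, *Csf3r* lay above each WT library in 3 of 4 L libraries without passing it, *Lcn2* and *Retnlg* had values above 0 and *Elane* and *Ltf* values below 0 that did not pass, and *Ngp* had too few counts to be tested. The 2 members called, both higher, are 28.6% of the 7 tested members. Over all tested genes 43.1% were called in either direction and 23.0% were called higher, so that the share of called members lay near these shares. Both called members, and no other, had each L library above each WT library, which 26.0% of all genes showed. *Camp* passed the filter on low counts only through its L libraries, so its count among the called members was favoured by the filter.

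**Figure D1:**
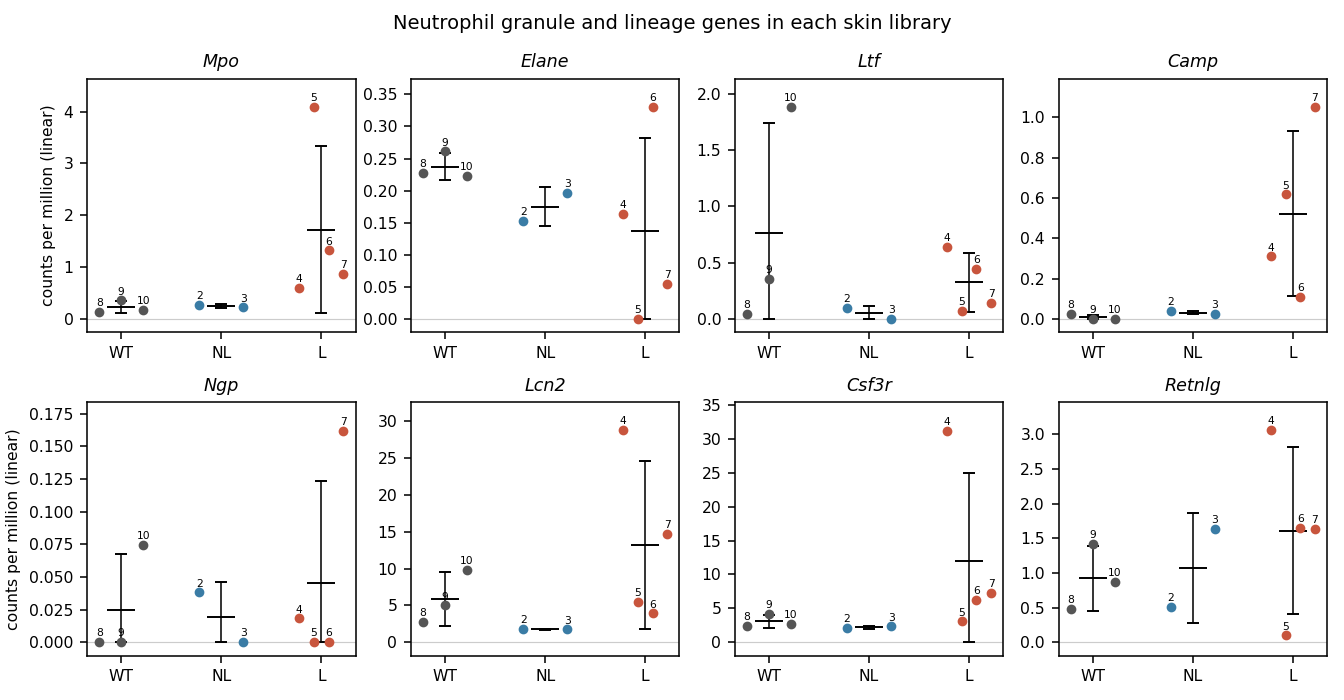
Each panel shows 1 gene, with the level in CPM (linear scale) of each skin library as a point marked with its sample number, by group (WT, NL, L). Bars give the mean and SD, drawn no lower than 0. *Mpo* is highest in L sample 5 at 4.09 CPM, *Camp* in L sample 7 at 1.05 CPM and *Csf3r* in L sample 4 at 31.2 CPM, while *Ltf* is highest in WT sample 10 at 1.88 CPM.

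*Mpo*, the peroxidase of primary granules, was counted at 0.137, 0.356 and 0.173 CPM in WT samples 8, 9 and 10, at 0.268 and 0.221 CPM in NL samples 2 and 3, and at 0.601, 4.09, 1.32 and 0.865 CPM in L samples 4, 5, 6 and 7. Each L library was above each WT and each NL library, and L sample 5 was 3.10 times the next highest. Its log2 fold change was 2.93 ± 0.76 (SE) against WT (7.63-fold, adjusted p = 0.0137, edgeR) and 2.79 ± 0.88 against NL (6.92-fold, adjusted p = 0.0474, edgeR). The call against WT was lost without WT sample 8 (2.68, adjusted p = 0.053) and without WT sample 10 (2.79, adjusted p = 0.0534), and the value without L sample 5 was 2.05 (adjusted p = 0.0147). The call against NL was lost without WT sample 8 (adjusted p = 0.0624), WT sample 9 (0.0579), WT sample 10 (0.0684), NL sample 2 (0.197), NL sample 3 (0.226) or L sample 6 (0.0647). Without NL sample 3 the value against NL was 2.68, and without L sample 5 it was 1.91 (adjusted p = 0.0484). An antisense gene, *Gm11505*, shares 512 exon bases with *Mpo*, and whether counting used strand is not given in the sources used here. *Gm11505* had at most 1 count in any library.

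*Elane*, the elastase of the same granules, was counted at 0.228, 0.261 and 0.223 CPM in WT skin, at 0.153 and 0.196 CPM in NL skin and at 0.164, 0, 0.33 and 0.0541 CPM in L samples 4 to 7. These are at most 15 counts per library, and the L libraries lay on both sides of the WT libraries. Against WT its log2 fold change was -0.78 ± 0.87 (adjusted p = 0.501). L sample 5, which held the most *Mpo* reads, 166, held no *Elane* read. The related granule proteases proteinase 3, *Prtn3* (-1.56 ± 0.92, adjusted p = 0.208), and cathepsin G, *Ctsg* (2.58 ± 1.16, adjusted p = 0.102), named here after their values were seen, had values of opposite sign that did not pass the test either.

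*Camp*, the precursor of the antimicrobial peptide cathelicidin, had 1, 0 and 0 counts in WT skin, 2 and 1 counts in NL skin and 17, 25, 5 and 58 counts in L samples 4 to 7. Each L library was above each library of the other groups, and L sample 7 was the highest with 1.05 CPM. The adjusted p was 0.00528 against WT and 0.0364 against NL (edgeR). Because only 1 read was counted in WT skin, the fitted log2 fold change of 5.63 ± 1.17 depends on the prior count. The ratio of summed counts per library total was 67.6 (95% exact binomial interval 11.9 to 2690) against WT and 16.6 (5.53 to 81.8) against NL, where the intervals cover counting error only. The call against WT remained when any 1 skin library was left out, with adjusted p between 0.0031 and 0.0242, but that against NL was lost without WT sample 8 (adjusted p = 0.0566), NL sample 2 (0.178), NL sample 3 (0.2), L sample 5 (0.0547) or L sample 7 (0.0593).

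*Ngp*, a cystatin-like protein of specific granules, was not tested in skin because it had at most 3 counts in each library other than L sample 7, which had 9. *Ltf*, the iron-binding protein of specific granules, was counted at 0.0456, 0.356 and 1.88 CPM in WT skin, at 0.0956 and 0 CPM in NL skin and at 0.637, 0.074, 0.441 and 0.144 CPM in L samples 4 to 7. WT sample 10 was 2.95 times the next highest library and set the sign of the fold change against WT. This was -1.21 ± 1.12 (adjusted p = 0.413) with that library and 0.70 (adjusted p = 0.675) without it. The 3 chromosome 9 neighbours thus had their highest skin values in L sample 7 (*Camp* and *Ngp*) and in WT sample 10 (*Ltf*).

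*Lcn2*, a siderophore-binding protein of specific granules and of inflamed epithelium, was counted at 2.76, 5.01 and 9.82 CPM in WT samples 8, 9 and 10, at 1.82 and 1.74 CPM in NL skin and at 28.8, 5.43, 3.92 and 14.7 CPM in L samples 4 to 7. The L libraries overlapped those of WT skin and lay above both NL libraries. For L skin the log2 fold change was 1.18 ± 0.72 against WT (2.26-fold, adjusted p = 0.224) and 2.89 ± 0.94 against NL (7.43-fold, adjusted p = 0.0554). Without L sample 4 these values were 0.46 (adjusted p = 0.566) and 2.17 (adjusted p = 0.0614). Against NL the call was gained without L sample 5 (adjusted p = 0.044), without L sample 6 (0.0334) and with DESeq2 (0.000438).

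*Csf3r*, the receptor through which granulocyte colony-stimulating factor acts, was counted at 2.35, 4.13 and 2.72 CPM in WT skin, at 2.06 and 2.33 CPM in NL skin and at 31.2, 3.08, 6.24 and 7.24 CPM in L samples 4 to 7. L sample 4 was 4.31 times the next highest library, and L sample 5 lay below WT sample 9. For *Csf3r* the log2 fold change was 1.96 ± 0.76 against WT (3.89-fold, adjusted p = 0.0664) and 2.44 ± 0.91 against NL (5.44-fold, adjusted p = 0.085). Without L sample 4 it was 0.85 against WT (adjusted p = 0.0895) and 1.33 against NL (adjusted p = 0.0471), and without L sample 5 it was 2.28 against WT (adjusted p = 0.0253) and 2.76 against NL (adjusted p = 0.038). DESeq2 called it against both, with adjusted p of 0.00766 and 0.00411.

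*Retnlg*, a secreted protein of mature mouse neutrophils, was counted at 0.479, 1.42 and 0.866 CPM in WT skin, at 0.516 and 1.64 CPM in NL skin and at 3.06, 0.0987, 1.65 and 1.64 CPM in L samples 4 to 7. L sample 4 was the highest library and L sample 5, with 4 counts, the lowest. The log2 fold change against WT was 0.81 ± 0.88 (95% interval -1.19 to 2.81, adjusted p = 0.484), an interval that holds increases of the size seen for *Csf3r*. Without L sample 4 it was 0.30 (adjusted p = 0.809). Against NL the value was 0.59 ± 0.99 (adjusted p = 0.7).

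**Figure D2:**
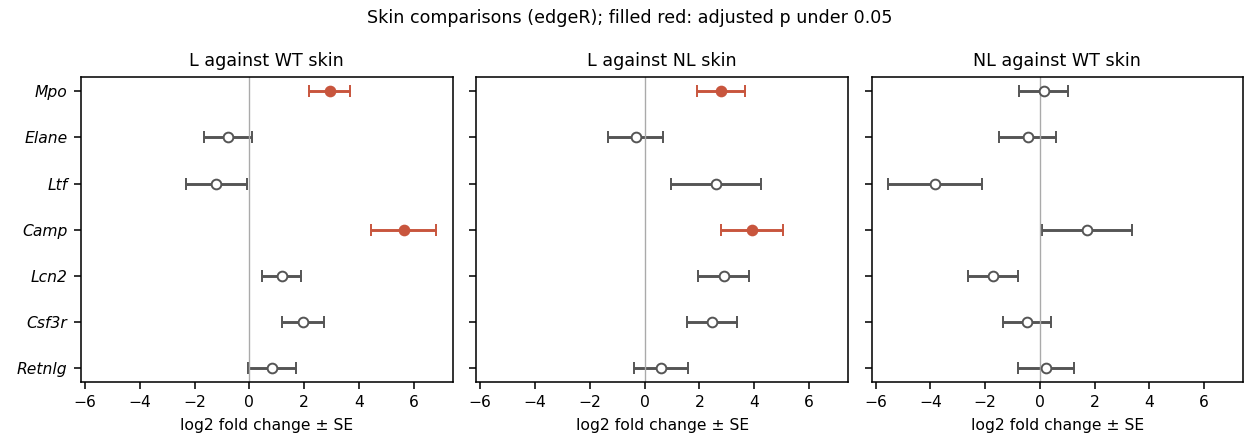
Log2 fold change (points) with its SE (bars) from edgeR for the 7 tested members in the 3 skin comparisons, with filled red points for an adjusted p under 0.05. *Mpo* and *Camp* are filled against WT (2.93 and 5.63) and against NL (2.79 and 3.92), and no point is filled in the comparison of NL with WT.

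In the comparison of L with NL skin, which contrasts lesions with skin of the same genotype, the same 2 members were called, *Mpo* and *Camp*, both higher. They are 28.6% of the tested members, beside 25.0% of all genes called in either direction and 13.2% called higher. *Mpo*, *Camp*, *Lcn2* and *Csf3r* had each L library above both NL libraries, 4 of 7 members beside 24.7% of all genes. *Camp* passed the filter on low counts only through its L libraries, so its place in both counts was favoured by the filter. Both comparisons share the L libraries, so they are not independent. With DESeq2, 4 members were called against NL (*Camp*, *Lcn2*, *Mpo* and *Csf3r*). With only the NL and L libraries in the fit no member was called, with adjusted p of 0.0644 for *Camp* and 0.0884 for *Mpo*.

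The comparison of NL with WT skin asks whether the genes differ between TG skin outside lesions and WT skin. It gives no order in time, since skin of all groups was taken at 12 months. None of the 7 tested members was called by edgeR or DESeq2, none had an unadjusted p under 0.05 with edgeR, and over all genes 0% were called by edgeR (0 genes, 1465 at an unadjusted p under 0.05, and 62 with DESeq2). *Lcn2* was at 1.82 and 1.74 CPM in NL and between 2.76 and 9.82 CPM in WT skin, with a log2 fold change of -1.72 ± 0.91 (95% interval -3.81 to 0.38, adjusted p = 0.704). *Ltf* was at -3.82 ± 1.71 (95% interval -7.72 to 0.09, adjusted p = 0.659), with 5 and 0 counts in NL skin and 76 counts in WT sample 10 beside 2 and 15 in the other WT libraries. It was -1.91 without WT sample 10, -8.11 without NL sample 2 and -2.99 without NL sample 3. *Csf3r* (-0.48 ± 0.88, 95% interval -2.50 to 1.53) and *Mpo* (0.14 ± 0.89, 95% interval -1.88 to 2.16) had intervals wide enough to hold changes in either direction. Only 2 NL libraries carry this comparison, 1 of them without an *Ifnk* count.

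Levels of different genes were compared as CPM per kilobase of exon. In WT skin the order was *Lcn2* (2.24 ± 1.37, SD, n = 3), *Retnlg* (1.55 ± 0.798), *Csf3r* (0.85 ± 0.26), *Elane* (0.241 ± 0.021), *Ltf* (0.22 ± 0.285), *Mpo* (0.0648 ± 0.0343), *Ngp* (0.0202 ± 0.0351) and *Camp* (0.01 ± 0.0174). Each *Csf3r* value (at least 0.651) was above each *Elane* value (at most 0.265), and all other neighbours in that order overlapped between libraries. In NL skin the order was *Retnlg* (1.82 ± 1.34, n = 2), *Lcn2* (0.679 ± 0.0216), *Csf3r* (0.608 ± 0.0529), *Elane* (0.177 ± 0.0309), *Mpo* (0.0714 ± 0.00971), *Camp* (0.0414 ± 0.0128), *Ngp* (0.0156 ± 0.0221) and *Ltf* (0.0139 ± 0.0196), and only *Ngp* and *Ltf* overlapped. In L skin *Lcn2* (5.04 ± 4.36, n = 4) and *Csf3r* (3.31 ± 3.59) were followed by *Retnlg* (2.72 ± 2.04), *Camp* (0.688 ± 0.540), *Mpo* (0.502 ± 0.470), *Elane* (0.139 ± 0.148), *Ltf* (0.0939 ± 0.0761) and *Ngp* (0.0369 ± 0.0642). All neighbours in this order overlapped. *Camp*, the last of the 8 in WT skin, was the fourth in L skin.

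The members did not peak in the same lesions. Of the 8, 3 were highest in L sample 4 (*Csf3r*, *Retnlg* and *Lcn2*), 2 in L sample 7 (*Camp* and *Ngp*), 1 in L sample 5 (*Mpo*), 1 in L sample 6 (*Elane*) and 1 in WT sample 10 (*Ltf*). The peaks of *Elane* (15 counts, beside 11 in WT sample 9) and *Ngp* (9 counts, beside 3 in WT sample 10) rest on few reads. Over the 9 skin libraries, Pearson's r of log2 CPM was 0.82 between *Lcn2* and *Csf3r* and 0.76 between *Camp* and *Mpo* (Spearman's rho 0.82 and 0.76). It was 0.33 between *Mpo* and *Csf3r* (rho 0.62), -0.32 between *Mpo* and *Retnlg* (rho 0.20) and -0.72 between *Mpo* and *Elane* (rho -0.33). These are descriptions of points that share libraries, scaling and group differences.

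**Figure D3:**
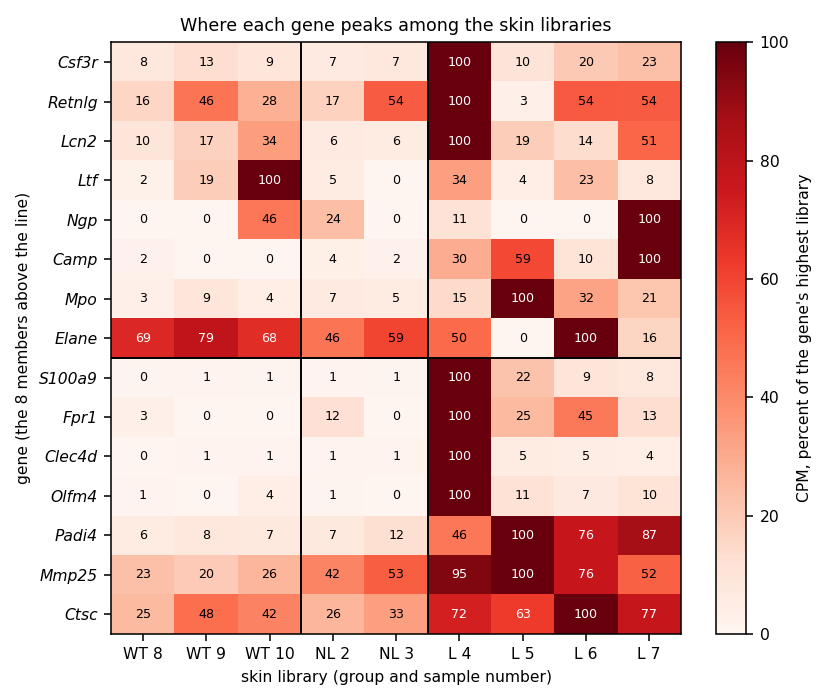
Each row is a gene and each column a skin library (group and sample number), and each cell gives the CPM as a percent of that gene's highest library. The 8 members above the line peak in different libraries, and the peaks of *Ngp* and *Elane* rest on 9 and 15 counts. Below the line *S100a9*, *Fpr1*, *Clec4d* and *Olfm4* all peak in L sample 4, *Padi4* and *Mmp25* in L sample 5 and *Ctsc* in L sample 6.

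By the same measure the non-member genes most like each member in skin were *Srgn* (r = 0.963), *Cyp4f16* (0.939) and *Plaur* (0.937) for *Csf3r*, and *Ly6k* (0.953), *Mdk* (0.946) and *Nme4* (0.945) for *Lcn2*. For *Mpo* they were *Acoxl* (0.984), *Aadacl2fm1* (0.983) and *Cidea* (0.982), and for *Camp* *Stk26* (0.987), *Ntmt1* (0.979) and *Gchfr* (0.979). *Elane* was nearest to *Inmt* (0.983), *C3* (0.979) and *Rimkla* (0.97), *Retnlg* to *Haus7* (0.937), *Fkbp1b* (0.929) and *Gm5801* (0.922), and *Ltf* to *Cass4* (0.924), *Emilin1* (0.901) and *Pilrb2* (0.88). The lists do not share a gene between members.

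Other genes of the neutrophil programme were taken from fixed lists, in which the members are included. The lists were chosen with earlier results of these data known, so their counts and shares of called genes are descriptions. Of 15 tested genes of the mature neutrophil surface and cytosol list (16 listed), 8 rose in L against WT skin and none fell, beside 23.0% of all genes called higher, with a median log2 fold change of 3.09 beside 0.06 over all genes. Those 8 are non-members. The listed gene that was not tested, *Ly6g*, had at most 0.0228 CPM in WT, 0 CPM in NL and 0.2 CPM in L skin. *Il1r2* and *Wfdc21* had lower mean levels in L than in WT skin (30.4 beside 50.4 CPM and 57.4 beside 77 CPM). These 3 genes are named here after their values were seen. *S100a9*, a calcium-binding alarmin, rose by 5.67 ± 1.11 (adjusted p = 0.00485), from at most 3.23 CPM in WT to at least 26.2 CPM in L skin. The C-type lectin receptor *Clec4d* rose by 5.36 ± 1.56 (adjusted p = 0.0253), from at most 0.47 to at least 1.86 CPM. The formyl peptide receptor *Fpr1* had 2 counts in all WT libraries together and 154 in L skin (adjusted p = 0.0135, edgeR). The ratio was 49.6 (95% exact binomial interval 13.5 to 413, which covers counting error only). *Fpr1* passed the filter on low counts only through its L libraries, so its call was favoured by the filter. *S100a9* and *Clec4d* were highest in L sample 4, at 329 and 45.1 CPM, beside 72.1 and 2.39 CPM in L sample 5, the next highest library.

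Of 13 tested genes of the specific and gelatinase granule list (14 listed), 4 rose and none fell, beside 23.0% of all genes called higher, with a median of 1.54 beside 0.06 over all genes. Besides *Camp* these were *Olfm4*, a glycoprotein of specific granules (4.26 ± 1.40, adjusted p = 0.0379), *Padi4*, the enzyme that citrullinates histones (3.44 ± 0.32, adjusted p = 0.00017), and the membrane metalloproteinase *Mmp25* (1.80 ± 0.29, adjusted p = 0.0016). Of 6 tested primary granule genes (8 listed), *Mpo* and *Ctsc*, the protease that activates granule serine proteases, rose (*Ctsc* 1.02 ± 0.24, adjusted p = 0.0101), with a list median of 0.12. Of 8 transcription factors of granulocyte development, *Runx1* (1.48 ± 0.22, adjusted p = 0.00098) and *Cebpb* (1.00 ± 0.16, adjusted p = 0.00161) rose and *Cebpd* fell (-0.99 ± 0.22, adjusted p = 0.007). Against NL skin 2 of 13 specific and gelatinase granule genes, 2 of 6 primary granule genes, 2 of 8 transcription factors and 6 of 15 genes of the mature neutrophil list rose and none fell, beside 13.2% of all genes called higher. Genes of these lists that passed the filter only through their L libraries had to differ. *Olfm4* was such a gene, with at most 0.198 CPM in WT and 0.0382 CPM in NL skin. The counts of called genes, their shares and the medians are therefore descriptions.

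Of 9 tested neutrophil growth factors and attractants (11 listed), 4 rose and none fell (median 4.89), beside 23.0% of all genes called higher. The chemokine *Cxcl2* rose by 8.32 ± 2.67 (adjusted p = 0.0362), with 122 CPM in L sample 4 and at most 1.81 CPM in the other L libraries. The cytokine *Il1b* rose by 5.53 ± 1.66 (adjusted p = 0.0282), with 366 CPM in L sample 4 and 11.8 to 17.4 CPM in the others. *Il17a*, a T cell cytokine that induces such chemokines in keratinocytes, had no count in WT skin and 76 in L skin, which is at least 16.3-fold higher against a floor of 3 counts over the group (adjusted p = 0.0169). *Il17a* passed the filter on low counts only through its L libraries, so its call was favoured by the filter. *Csf3*, the gene of the ligand of *Csf3r*, did not pass the filter and is named after its values were seen. It had 202 counts in L sample 4, the library with the most *Csf3r*, 3 counts in L sample 7, 1 in WT sample 8 and 0 in the other skin libraries.

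Several lists of other cell types moved with the same groups. All 9 stressed keratinocyte genes rose in L against WT skin, with summed levels of 470 to 750 CPM in WT, 1220 to 1240 CPM in NL and 1800 to 5560 CPM in L skin. All 7 hair shaft genes rose, from at most 0.456 CPM in WT to between 1700 and 5880 CPM in L skin. Of 6 skeletal muscle genes 2 fell, and their summed level was 19600 to 28500 CPM in WT and 19.0 to 5670 CPM in L skin, lowest in L sample 5, the library with the most *Mpo*. Of 9 monocyte and macrophage genes only *Ccr2* rose, with summed levels of 672 to 1610 CPM in WT and 514 to 1480 CPM in L skin. Of 6 tested erythroid genes, markers of blood in a sample, *Car1* fell, and the summed level of the list ranged from 41.0 to 934 CPM within L skin, lowest in L sample 7 and highest in L sample 5. Of the remaining lists, 2 of 5 adipocyte genes and 1 of 3 eosinophil genes fell, and none of 4 mast cell and basophil genes was called. Of 4 platelet genes 2 rose and 1 fell. Of the 6 genes of the stem and progenitor list, which includes the proliferation genes *Mki67* and *Top2a*, 3 rose and 1 fell. The eosinophil peroxidase gene *Epx* and the progenitor gene *Ms4a3* had 0 counts in each skin library. The part of these differences in the members' values was not tested. Leaving the hair, muscle, fat and keratin genes out of library totals changes the scaling only, and with it *Mpo* was at 2.93 (adjusted p = 0.0134) and *Camp* at 5.63 (adjusted p = 0.00522). In bulk tissue, fewer cells of a type and less RNA per cell cannot be told apart.

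In lymph nodes the members other than *Csf3r* were near the limit of detection. *Csf3r* was counted in each library, at 25 to 207 counts, and *Retnlg* in 8 of 12 libraries. The other 6 did not pass the filter, with at most 22 counts in any library. The comparisons ask how UVB and the transgene change these genes in nodes that drain the skin, and no comparison called *Csf3r* or *Retnlg* with edgeR or DESeq2, which gave no adjusted p for *Retnlg* within either genotype. At an unadjusted p under 0.05 stood *Csf3r* in TG against WT NoTx nodes, and both genes for UVB and for genotype over all 12 libraries.

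**Figure D4:**
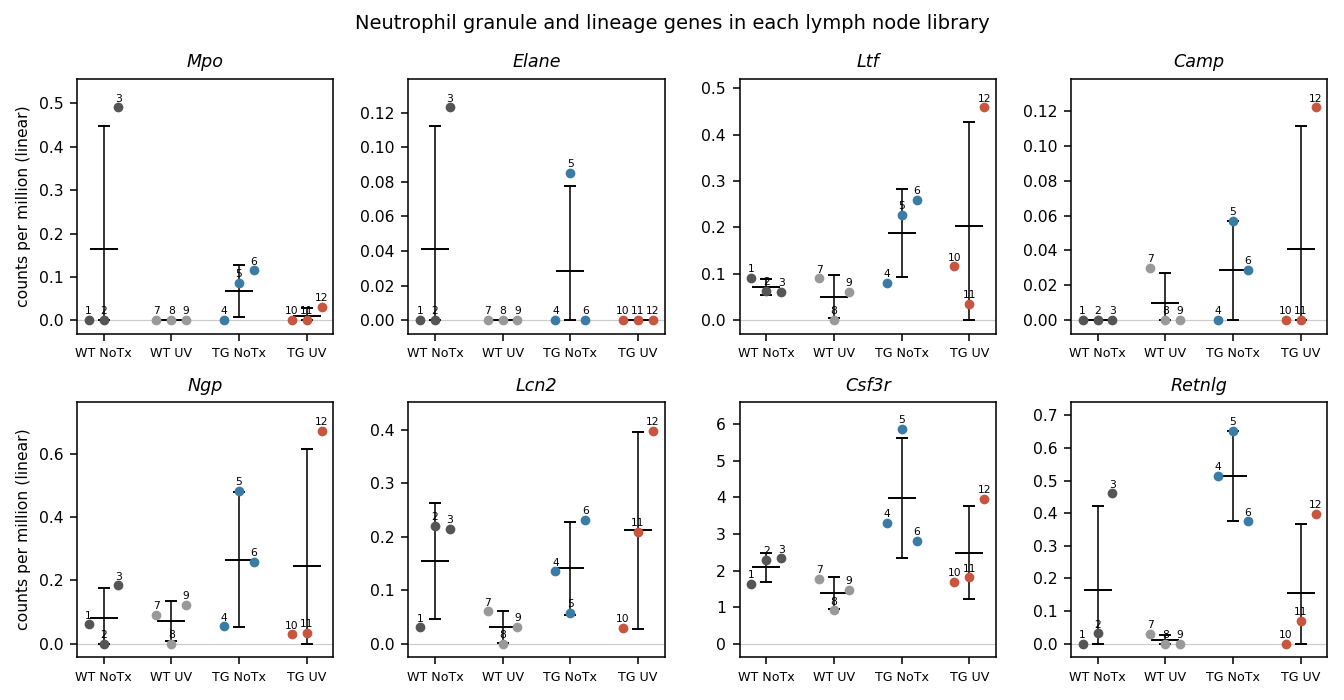
Each panel shows 1 gene, with the CPM (linear scale) of each lymph node library as a point marked with its sample number, by genotype and treatment. Bars give the mean and SD, drawn no lower than 0. TG UV sample 12 is the highest library for *Ltf*, *Camp*, *Ngp* and *Lcn2*, TG NoTx sample 5 for *Csf3r* (5.87 CPM) and *Retnlg* (0.653 CPM), and WT NoTx sample 3 for *Mpo* and *Elane*.

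*Csf3r* was counted at 1.63, 2.29 and 2.33 CPM in WT NoTx samples 1 to 3, at 1.77, 0.909 and 1.47 CPM in WT UV samples 7 to 9, at 3.3, 5.87 and 2.82 CPM in TG NoTx samples 4 to 6 and at 1.69, 1.81 and 3.95 CPM in TG UV samples 10 to 12. Each TG NoTx library was above each WT NoTx library, which 5.52% of all tested genes showed. The log2 fold change of TG against WT was 0.94 ± 0.38 in NoTx nodes (1.92-fold) and 0.84 ± 0.39 in UV nodes (1.78-fold). Over both treatments it was 0.89 ± 0.27 (1.85-fold, 95% interval 0.30 to 1.47). The adjusted p was 1 without UV, 0.715 with UV and 1 over both (edgeR), so none passed the correction over 16173 genes. In these 3 comparisons 0%, 0% and 0.00618% of all genes were called by edgeR, with 549, 1131 and 754 genes at an unadjusted p under 0.05 and 2, 21 and 9 genes called by DESeq2. Without TG UV sample 12 the value over both treatments was 0.63 (adjusted p = 0.648).

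*Retnlg* had 0, 1 and 15 counts in WT NoTx, 1, 0 and 0 counts in WT UV, 19, 23 and 13 counts in TG NoTx and 0, 2 and 13 counts in TG UV libraries. It was present with at least 13 counts in all 3 TG NoTx libraries and in 1 library each of WT NoTx (sample 3) and TG UV (sample 12). The log2 fold change of TG against WT over both treatments was 2.55 ± 1.03 (95% interval 0.31 to 4.79, adjusted p = 1). It was 4.12 without WT NoTx sample 3 (adjusted p = 0.992) and 1.47 without TG UV sample 12 (adjusted p = 0.861). Since 1 read was counted in WT UV nodes, TG UV and WT UV were compared by the ratio of summed counts per library total. It was 14.6 (95% exact binomial interval 2.25 to 615, which covers counting error only). Most of the TG UV counts, 13 of 15, were in sample 12. The edgeR log2 fold change of TG UV against WT UV was 3.47 (95% interval -0.42 to 7.35, adjusted p = 0.732).

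The values for UVB were below 0 for both genes in both genotypes and did not pass the test. The log2 fold change over both genotypes was -0.63 ± 0.27 for *Csf3r* (95% interval -1.22 to -0.05, adjusted p = 0.148) and -2.61 ± 1.03 for *Retnlg* (95% interval -4.85 to -0.38, adjusted p = 0.121), while 8.61% of all genes were called. Both had an unadjusted p under 0.05, and DESeq2 called neither (adjusted p = 0.107 and 0.0827). Single libraries moved these values in both directions. Without WT NoTx sample 3 *Retnlg* was at -1.06 (adjusted p = 0.687), and without TG NoTx sample 5 *Csf3r* was at -0.45 (adjusted p = 0.307). Without TG UV sample 12 both were called, *Csf3r* at -0.91 (adjusted p = 0.0166) and *Retnlg* at -3.71 (adjusted p = 0.0204), and the number of called genes over the whole table was 3790 of 16616 in place of 1393 of 16173.

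Within genotypes, *Csf3r* changed with UVB by -0.58 ± 0.39 in WT (adjusted p = 0.364, 4.98% of all genes called) and by -0.69 ± 0.38 in TG nodes (adjusted p = 0.596, 0% of all genes called, 1507 genes at an unadjusted p under 0.05 and 134 with DESeq2). The difference between these responses, tested as an interaction, was -0.10 ± 0.55 (95% interval -1.28 to 1.07, adjusted p = 0.981). For *Retnlg* the responses were -3.54 ± 1.78 in WT and -1.69 ± 1.06 in TG nodes. The WT response was -0.43 without WT NoTx sample 3, which held 15 of the 16 WT NoTx counts, and -5.46 without WT UV sample 7, and the TG response was -3.86 without TG UV sample 12 and -1.09 without TG UV sample 10. The interaction was 1.84 ± 2.09 (95% interval -2.69 to 6.38, adjusted p = 0.884). Over all genes 0% were called for the interaction (881 at an unadjusted p under 0.05, 5 with DESeq2). The intervals leave room for responses that differ between genotypes in either direction.

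Among the 6 members below the filter, *Ngp* had 8 counts in WT NoTx, 7 in WT UV, 28 in TG NoTx and 24 in TG UV libraries, of which 17 were in TG NoTx sample 5 and 22 in TG UV sample 12. *Ltf* had 7, 5, 20 and 20 counts in the same groups, 15 of them in TG UV sample 12. *Lcn2* had 15, 3, 15 and 20 counts, and *Camp* 0, 1, 3 and 4. *Mpo* had 16, 0, 7 and 1 counts and *Elane* 4, 0, 3 and 0, and for both the WT NoTx counts all came from sample 3. When edgeR was run without the filter, the lowest adjusted p of these 6 genes over the 7 node comparisons was 0.151 (*Mpo*, UV over both genotypes, -3.88). Of those 42 values, 5 had an unadjusted p under 0.05.

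Per kilobase of exon, *Csf3r* was the highest member in each node group, with 0.577 ± 0.109 (SD, n = 3) in WT NoTx, 0.383 ± 0.121 in WT UV, 1.11 ± 0.45 in TG NoTx and 0.688 ± 0.352 in TG UV nodes. *Retnlg* was the second in 3 of 4 groups, at 0.277 ± 0.434, 0.867 ± 0.234 and 0.263 ± 0.358 in WT NoTx, TG NoTx and TG UV nodes. In these 3 groups its libraries overlapped those of *Csf3r*, and in WT UV nodes, where *Ngp* was the second at 0.0581 ± 0.0521, they did not. *Csf3r* and *Retnlg* moved together across the 12 libraries, with r = 0.86 and rho = 0.94. The genes nearest to *Csf3r* were *Ninj1* (r = 0.963), *Etv5* (0.938) and *Isy1* (0.929), and those nearest to *Retnlg* were *Glul* (0.9), *Gm16286* (0.892) and *Cradd* (0.873).

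Hemoglobin and other erythroid genes moved with the same libraries. All 5 tested erythroid genes (7 of 8 listed were matched) were lower with UVB, such as *Alas2*, the first enzyme of erythroid heme synthesis (-2.25 ± 0.41, adjusted p = 0.0144). The summed level of the 7 genes was 121 to 262 CPM in WT NoTx, 10.8 to 39.5 CPM in WT UV, 261 to 303 CPM in TG NoTx and 26.1 to 159 CPM in TG UV nodes, with the highest TG UV value in sample 12. Over the 12 libraries, Spearman's rho with the mean level of the 7 erythroid genes was 0.77 for *Csf3r* and 0.80 for *Retnlg*. In a further edgeR fit, chosen after seeing the data, the mean level of the 5 tested erythroid genes was added as a covariate. The UVB values were then 0.13 for *Csf3r* (adjusted p = 0.963) and 2.87 for *Retnlg* (adjusted p = 0.817). The TG against WT values over both treatments were 0.42 and -0.91 (adjusted p = 0.941 for both). The erythroid level itself differed with UVB, so the effects of UVB and of the erythroid level cannot be told apart in that fit.

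**Figure D5:**
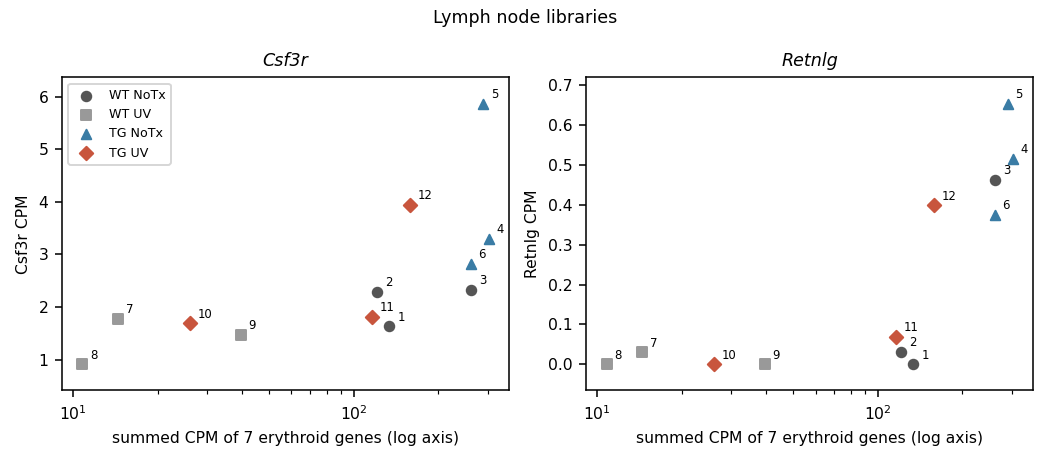
Each point is a lymph node library, marked with its sample number and shaped by group, with the summed CPM of 7 erythroid genes on a log axis against the CPM of *Csf3r* (left) and *Retnlg* (right). The 3 WT UV libraries lie at 10.8 to 39.5 CPM of erythroid genes and have at most 1.77 CPM of *Csf3r*, and the 3 TG NoTx libraries lie at 261 to 303 CPM and have at least 2.82 CPM.

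Of the fixed lists in nodes, none of the 10 tested genes of the mature neutrophil surface and cytosol list was called for UVB over both genotypes (median -0.59 beside 0.01 over all genes) or for genotype (median 0.52). None of the 7 tested specific and gelatinase granule genes was called either (medians -0.55 and 0.56), and of the 8 primary granule genes only 1 was tested. Of 7 tested transcription factors *Runx1* fell with UVB by 0.24 on the log2 scale (SE 0.06, adjusted p = 0.0309). None of the 3 tested growth factors and attractants and none of the 9 monocyte and macrophage genes was called (medians for UVB -0.46 and -0.18). Of the 6 genes of the stem and progenitor list, 3 rose with UVB, *Mki67* (1.17), *Top2a* (0.87) and *Myb* (0.47). *Mki67* and *Top2a* are proliferation genes that are not restricted to progenitors, and *Cd34*, *Kit* and *Flt3* were not called.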

How the data were processed

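Bulk RNA from 9 mouse skin and 12 inguinal lymph node libraries was analysed from 1 table per tissue. The authors deposited expected counts per gene, which were all whole numbers. The submitters' processing notes name cutadapt 4.8, FastQC 0.11.8, STAR 2.7.8a, RSEM 1.3.3, MultiQC 1.20 and GRCm38. The annotation release and the strand setting of counting are not given in the sources used here. Lymph nodes were passed through a cell strainer before lysis.

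Groups came from the labels, and the library names carry 1 prefix per tissue, which differs between skin and nodes. Each tissue was fitted once over all its libraries with group means in edgeR 4.0.16 (limma 3.58.1, R 4.3.3): filterByExpr by group (minimum count 10, minimum total 15), TMM scaling, robust quasi-likelihood F-tests and Benjamini-Hochberg adjustment over all tested genes of the tissue, with a threshold of 0.05. The SE is the absolute log2 fold change divided by the square root of F. DESeq2 1.42.0, other scalings, filters and thresholds, and leaving out each library were alternatives. The fit was tested on simulated counts that had the same spread for all genes and no library that stood apart. That test does not cover libraries that differ as widely as the L libraries. CPM per kilobase used GENCODE M21 exon lengths, correlations used log2 CPM with a prior count of 0.5, and promoters came from RefSeq (GRCm38.p6). No pair of libraries agreed within sampling noise (22 pairs within groups, chi-square per gene 15.1 to 346). The floor was 3 counts. Counting intervals are 95% and cover counting error only.

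The members and lists were chosen with earlier results of these data known. Named were the members, the 3 genes of each list with the largest change among those called in L against WT skin and for UVB over both genotypes, and the 3 genes most correlated with each tested member; for brevity some of these are given as counts, and genes named outside the rule are marked as such.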

Additional observations from a re-analysis of the deposited data

Results flagged for a closer look

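In L skin, the group of 4 libraries, the highest or lowest library of each of the 8 genes was set against the other libraries of the group by the gap to the nearest one as a share of the whole range. With 4 libraries a share over 0.829 was taken to mark a library that stands apart. For normally distributed values chance alone does so in about 1 of 20 groups. That rate need not hold for CPM on a linear scale or for low counts, and 8 genes of the same libraries were screened. *Csf3r* in L sample 4, at 31.2 CPM, had a share of 0.852. *Ngp* in L sample 7, at 0.162 CPM or 9 counts, had a share of 0.888, and the other L libraries had 1, 0 and 0 counts. For the other 6 genes the share was between 0.348 and 0.794.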

How the results depend on the processing

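Of 667 member values under the alternatives, 611 kept their direction and their side of the threshold, 21 lost the call, 12 gained it and 23 had the opposite sign, none of the last with a call in either fit. Against WT, 2 members were called in L skin. The number was 3 with DESeq2, 0 with at least 10 counts in every library, which left 2 members, 1 at an adjusted p under 0.01, 1 with glmTreat at a log2 fold change of 1, and 1 to 3 when single libraries were left out. Against NL it was 2, and 4 with DESeq2, 1 with at least 10 counts in every library, 0 with only the compared groups, 0 at an adjusted p under 0.01, 0 with glmTreat and 0 to 3 when single libraries were left out. For UVB over both genotypes it was 0, and 0 to 2 when single libraries were left out. The other comparisons stayed at 0 members. Apart from fewer genes or libraries, the cause was not tested.

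Signs turned when single libraries were left out for *Ltf* in L against WT (0.70 without WT 10, the highest of a range from -1.77), for *Retnlg* (-0.02 without NL 2, range to 1.65) and *Elane* (0.05 without L 5, range from -0.50) in L against NL, and in NL against WT for *Mpo* (-0.11 without WT 8, -0.01 without WT 10 and -0.01 without NL 2, range to 0.65) and *Retnlg* (-0.10 without WT 8 and -0.86 without NL 3, range to 0.83). The interaction turned for *Csf3r* (0.07, 0.11, 0.31, 0.14 and 0.10 without WT NoTx 1, WT UV 7, TG NoTx 5, TG UV 10 and TG UV 11, range from -0.61) and for *Retnlg* (-1.26 without WT NoTx 3 and -0.30 without TG UV 12, range to 3.77). With the erythroid level as a covariate, chosen after seeing the data, *Csf3r* turned for UVB in WT (0.40) and over both genotypes (0.13), and *Retnlg* for UVB in WT (4.16), in TG (1.59) and over both (2.87), for genotype with UVB (-2.19) and over both treatments (-0.91) and for the interaction (-2.57). No paired analysis was possible because the labels do not tie libraries to mice. The 6 members below the filter in nodes and *Ngp* in skin had too few counts for a test, and low expression and limited depth cannot be told apart there.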
